A study of Mus musculus with 29 samples.

Results

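The genes described here are 52 genes of the cell cycle and of DNA replication, found by symbol among the 54532 gene rows of a table of RNA-seq counts from mouse colon. They were taken for what their products do in dividing cells: 23 act in DNA replication or its onset and 29 in mitosis. All 52 passed the limit on low counts, a mean of at least 3 counts over the 29 mice, so the counts of genes below leave none of them out. Each gene is given in CPM, the count as a share of its library on a common scale, corrected with TMM factors (edgeR's scaling for library composition), and each difference as a log2 fold change between a colitis model and its own control with its standard error (SE).

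The colon segments came from 29 mice in 9 groups. On the Balb/C background there were untreated wild-type controls (n = 3), mice given 3% dextran sulfate sodium (DSS) in drinking water for 5 days and culled on day 10 after a return to plain water (n = 3), mice given 3 mg dinitrobenzene sulfonic acid (DNBS) rectally in ethanol (n = 3), and mice labelled as treated with IL10 antibodies, for which the treatment text gives 750 µg of anti-IL-10R and a cull at 4 weeks (IL-10 blockade, n = 4). Also on Balb/C were untreated Rag2-/- controls (n = 3) and untreated mice of the genotype Tbx21-/- x Rag2-/-, the TRUC model of spontaneous colitis (n = 4). Mice labelled C57BL/6 Rag1-/- were untreated (n = 3), had received naive CD4+ T cells 6 to 8 weeks before the cull (T-cell transfer, TCT, n = 3), or had received 50 µg of agonist anti-CD40 antibody 7 days before it (n = 3). Rag-deficient mice have no mature T or B cells of their own, so every mouse of the last 5 groups shares that lack and the T cells of TCT mice came from donors. The labels give no age (the identifier of TRUC 4 ends in 8W, whose meaning is not stated and which was not used), DNBS has no cull day in them, and strain differs between model families, so each model is set against its own control.

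The labels of 1 family go against transcripts of the targeted genes. Rag2 had 15 to 25 counts in the Rag2-/- controls and 57 to 94 in TRUC, and Rag1 0 to 3 in both. The libraries labelled Rag1-/- control had 6 to 20 counts of Rag2 and 0 to 4 of Rag1, and those labelled anti-CD40 had 48 to 99 and 0 to 2, whereas TCT had none of Rag2 and 20 to 33 of Rag1. TCT and its labelled controls thus differed in these transcripts, so a difference of genotype between them cannot be told apart from the transfer. Which exons the alleles lack is not given in the sources used here, and the treatment text calls the T-cell recipients Rag2-/-. The groups of this family are therefore called by their labels throughout. Tbx21, deleted in TRUC, still had 26 to 52 counts there. Il10 had 61 to 111 counts under IL-10 blockade and 1 to 4 in the untreated wild-type mice.

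Libraries held 10725564 to 14977094 counts (median 12287039), at which 3 counts, the level taken as a floor, are worth 0.179 to 0.314 CPM. A few mice stood apart from their group in the summed level of the 52 genes. DSS 5 reached 3668 CPM against 1996 and 1724 in the other DSS mice, DNBS 16 reached 4011 against 2469.9 and 2724, IL-10 blockade 1 reached 3820.0 against 2382 to 2876, and TCT 5 reached 4343 against 1887 in TCT 1. Results that turn on such a mouse are given with and without it. Each library is 1 mouse. Each p-value sets a difference against a spread between mice that was estimated for the gene over all 9 groups. It is not the spread of the compared groups alone.

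Cells divide by copying their DNA once and then separating the copies. Before copying, the Mcm ring is loaded at origins of replication, E cyclins and E2F factors switch on the genes of DNA synthesis, and enzymes such as ribonucleotide reductase supply the nucleotides. Later, Cdk1 with its B cyclins drives the cell into mitosis, a checkpoint at the kinetochores holds chromosomes together until all are attached, and the anaphase-promoting complex then releases them. In the colon most dividing cells are transit-amplifying cells of the epithelial crypts, and dividing lymphocytes and stromal cells add to the signal in inflamed tissue. In RNA of whole tissue, more dividing cells and more of these transcripts per cell cannot be told apart.

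Promoter sequence gives a first view of what the genes share apart from their roles. Promoter windows of 300 bases, 250 before and 50 after the annotated start, were available from RefSeq (GRCm38.p6) for 43 of the 52 genes and for 27025 genes in all, with both strands searched. Genes of mitosis are known to carry CHR elements (TTTGAA or TTCGAA) near CCAAT boxes, and genes of DNA synthesis E2F sites. The CHR letters were in 21 of the 43 windows (48.8%) and in 19.4% of all windows, CCAAT in 32 (74.4%) against 37.9%, and both together in 21 (48.8%) against 7.70%. One of 4 E2F spellings (TTTCCCGC, TTTGGCGC, TTTCGCGC or TTTGCCGC) was in 9 windows (20.9%) against 2.32%. The CHR letters lay in 17 of 24 windows of mitotic genes and in 4 of 19 of replication genes, and the E2F letters in 1 and 8 of them. A match of letters is not a bound site, and these counts are a description.

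Stretches of 150 bases from 6 of these windows are shown for genes that carry the comparisons below, 5′ to 3′ on the gene's strand, with the letters searched in capitals on whichever strand they lie. They are Ccnb1 (chr13:100786571-100786720, minus strand), Cdk1 (chr10:69352939-69353088, minus), Plk1 (chr7:122159285-122159434, plus), Mcm2 (chr6:88898781-88898930, minus), Mcm5 (chr8:75109359-75109508, plus) and Ccne1 (chr7:38107535-38107684, minus), all upstream of the annotated transcripts, of which the Plk1 stretch overlaps an exon of an antisense non-coding RNA.
Ccnb1: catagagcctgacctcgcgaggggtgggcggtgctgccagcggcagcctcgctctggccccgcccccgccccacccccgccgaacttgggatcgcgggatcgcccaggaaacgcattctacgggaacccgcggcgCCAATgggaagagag
Cdk1: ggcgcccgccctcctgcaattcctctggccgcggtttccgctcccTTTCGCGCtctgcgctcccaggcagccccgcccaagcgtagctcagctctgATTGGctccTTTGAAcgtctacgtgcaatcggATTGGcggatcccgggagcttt
Plk1: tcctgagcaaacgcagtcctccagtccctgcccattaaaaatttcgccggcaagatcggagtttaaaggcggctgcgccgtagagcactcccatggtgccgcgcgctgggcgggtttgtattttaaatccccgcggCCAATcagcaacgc
Mcm2: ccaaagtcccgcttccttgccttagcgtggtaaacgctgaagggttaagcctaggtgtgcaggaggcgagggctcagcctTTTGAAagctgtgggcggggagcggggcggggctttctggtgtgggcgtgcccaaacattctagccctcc
Mcm5: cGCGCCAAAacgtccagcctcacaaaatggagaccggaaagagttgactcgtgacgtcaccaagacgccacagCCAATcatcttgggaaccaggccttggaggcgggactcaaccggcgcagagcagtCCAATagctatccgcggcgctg
Ccne1: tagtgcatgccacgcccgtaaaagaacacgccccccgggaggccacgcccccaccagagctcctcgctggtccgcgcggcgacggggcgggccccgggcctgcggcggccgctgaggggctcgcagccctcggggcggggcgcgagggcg
The mitotic cyclin Ccnb1 shows 1 CCAAT box and the kinase gene Cdk1 an E2F site, 2 CCAAT boxes and a CHR between them. Plk1 shows a CCAAT box close to its start, Mcm5 an E2F site on the opposite strand and 2 CCAAT boxes, Mcm2 the CHR letters, and Ccne1 none of the letters in this stretch. Beyond the bases shown, the windows counted above also hold the CHR letters in Plk1, CCAAT in Mcm2 and another E2F spelling in Mcm5. Genes with the CHR letters and genes without them had these median differences, a description with no test: 1.30 and 1.28 in TRUC, 0.23 and 0.24 in DSS, 0.68 and 0.49 in DNBS, 0.50 and 0.52 under IL-10 blockade, 0.28 and 0.40 in TCT and 0.36 and 0.35 with anti-CD40 (log2, 21 and 22 genes). In TCT 0 of the genes with the letters and 4 of those without rose (16.1% of all genes), and with anti-CD40 0 and 3 (10.9%). These counts rest on few calls, and a difference between the 2 sets was not tested.

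TRUC colon showed the broadest change. Of the 52 genes 49 rose against the Rag2-/- controls at an adjusted p under 0.05 (edgeR's quasi-likelihood test, Benjamini-Hochberg over 18616 genes), where 22.4% of all genes tested rose. No member was lower, where 23.4% of all genes fell. At an unadjusted p under 0.05, 50.0 members were higher (25.5% of all genes) and 0 lower (27.3%). The 52 transcripts summed to 1668, 1626 and 1508 CPM in the controls and to 3733, 3872, 4200.0 and 3625 CPM in TRUC, 2.41 times as much, and every TRUC mouse lay above every control. For single genes the same held in 51 of 52 (28.8% of all genes), Cdt1 being the exception. The median log2 difference was 1.30 over the module and -0.03 over all genes tested. Left-out fits, each without 1 mouse, called 48 to 49.

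**Figure D1:**
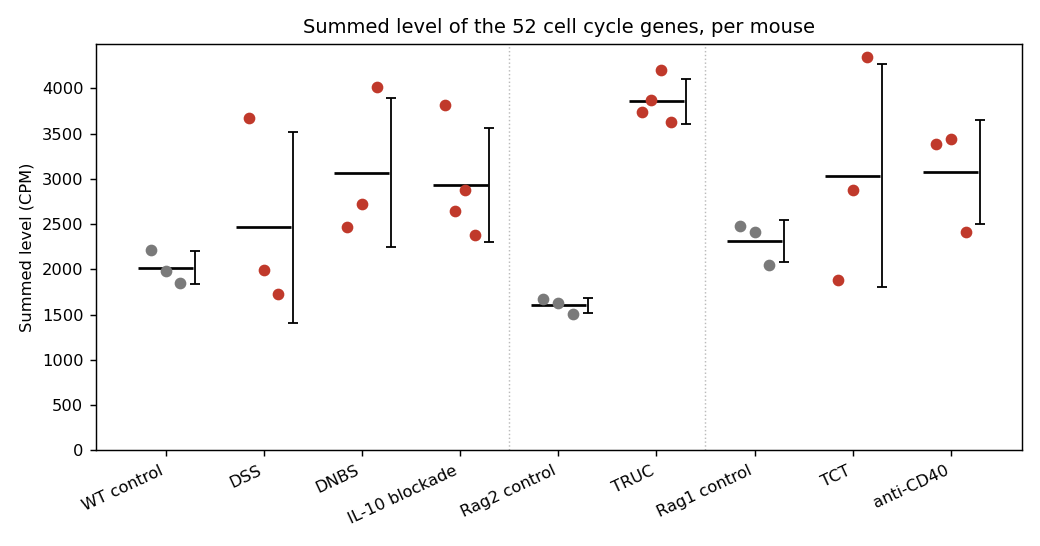
Summed level of the 52 genes in each of the 29 mice (TMM-scaled CPM, linear axis from 0), by group, with 1 point a mouse (grey for controls, red for models), a line at the group mean and a bar of 1 SD to each side. The TRUC mice lie between 3625 and 4200.0 CPM, apart from the Rag2-/- controls, whereas DSS, TCT and anti-CD40 mice overlap their controls.

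Replication genes came first in the order of the cycle. Mcm2 was at 35.7, 37.7 and 39.6 CPM in the controls and at 65.7, 68.2, 67.9 and 62.1 CPM in TRUC mice (log2 difference 0.81, SE 0.24, adjusted p = 0.00783). Mcm2 is a subunit of the ring that becomes the replicative helicase. Mcm5 measured 50.2, 48.7 and 47.8 CPM in the Rag2-/- controls and 116, 126, 126 and 116 CPM in TRUC (log2 difference 1.30, SE 0.29, adjusted p = 0.000848). Mcm5 belongs to the same ring, and both genes lay higher in every TRUC mouse than in any control. Pcna was at 101, 104 and 116 CPM in the controls and at 160.4, 162, 185 and 164 CPM in TRUC mice (log2 difference 0.65, SE 0.16, adjusted p = 0.00258). Pcna is the clamp that holds DNA polymerases on the template. Rrm2 measured 13.5, 13.8 and 10.6 CPM in the Rag2-/- controls and 71.3, 79.4, 76.7 and 65.4 CPM in TRUC (log2 difference 2.54, SE 0.33, adjusted p = 3.45e-06). Rrm2 encodes the regulated subunit of ribonucleotide reductase and rose 5.81-fold. Ccne1 was at 3.099, 4.06 and 5.89 CPM in the controls and at 16.7, 18.1, 18.4 and 15.4 CPM in TRUC mice (log2 difference 1.97, SE 0.29, adjusted p = 1.89e-05). E2f1 measured 8.85, 9.57 and 8.23 CPM in the Rag2-/- controls and 13.6, 12.6, 14.3 and 13.4 CPM in TRUC (log2 difference 0.60, SE 0.22, adjusted p = 0.0299). Ccne1, an E cyclin that starts DNA synthesis with Cdk2, rose far more than E2f1, an activator of genes of DNA synthesis. Of the 12 genes of origin licensing and the helicase 11 rose (median 1.04), as did all 5 of the clamp and nucleotide supply (median 1.01) and all 6 E cyclins and E2F factors (median 1.33).

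E2f2 was at 12.3, 15.3 and 10.2 CPM in the controls and at 106, 106, 93.2 and 110.2 CPM in TRUC mice (log2 difference 3.04, SE 0.24, adjusted p = 6.07e-09). E2f2, an activator E2F of DNA synthesis genes, had the largest rise of the module at 8.22-fold. Cdt1, which brings the Mcm ring to origins, was the replication gene not called: Cdt1 measured 16.9, 15.0 and 18.5 CPM in the Rag2-/- controls and 21.9, 19.3, 16.04 and 19.2 CPM in TRUC (log2 difference 0.19, SE 0.21, adjusted p = 0.494). The groups overlapped.

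Mitotic genes rose to a similar or larger degree. Foxm1 was at 11.2, 14.2 and 12.2 CPM in the controls and at 28.8, 28.2, 27.2 and 26.4 CPM in TRUC mice (log2 difference 1.14, SE 0.29, adjusted p = 0.00295). Foxm1 is a transcription factor of mitotic genes. Cdk1 measured 31.96, 33.4 and 27.5 CPM in the Rag2-/- controls and 81.3, 87.6, 106 and 81.8 CPM in TRUC (log2 difference 1.52, SE 0.28, adjusted p = 0.000179). Ccnb1 was at 38.7, 36.1 and 30.96 CPM in the controls and at 107, 113, 139 and 102 CPM in TRUC mice (log2 difference 1.71, SE 0.33, adjusted p = 0.000225). Cdk1 rose 2.88-fold and its partner cyclin Ccnb1 3.27-fold, with no overlap between the groups. Aurkb measured 11.2, 14.3 and 11.6 CPM in the Rag2-/- controls and 35.8, 38.7, 36.8 and 38.4 CPM in TRUC (log2 difference 1.60, SE 0.28, adjusted p = 9.47e-05). Cdc20 was at 35.1, 36.4 and 27.2 CPM in the controls and at 104, 106, 109.6 and 93.8 CPM in TRUC mice (log2 difference 1.65, SE 0.30, adjusted p = 0.000143). Aurkb corrects the attachment of chromosomes to the spindle and Cdc20 activates the anaphase-promoting complex, and for both every TRUC mouse lay above every control. Mki67 measured 145, 136 and 123 CPM in the Rag2-/- controls and 282, 285, 302 and 278 CPM in TRUC (log2 difference 1.09, SE 0.29, adjusted p = 0.00369). Top2a was at 126, 131 and 101 CPM in the controls and at 341, 367, 396 and 314 CPM in TRUC mice (log2 difference 1.57, SE 0.31, adjusted p = 0.000326). Mki67, the antigen used to stain dividing cells, and Top2a, the topoisomerase that untangles sister chromatids, likewise did not overlap.

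Birc5 measured 25.4, 28.1 and 21.4 CPM in the Rag2-/- controls and 87.4, 102, 107 and 84.2 CPM in TRUC (log2 difference 1.93, SE 0.32, adjusted p = 5.14e-05). Aurka was at 20.8, 18.7 and 17.4 CPM in the controls and at 63.6, 71.9, 79.4 and 63.3 CPM in TRUC mice (log2 difference 1.87, SE 0.30, adjusted p = 3.72e-05). Birc5, a subunit of the chromosomal passenger complex, and Aurka, the kinase of spindle poles, completed the 5 largest rises with E2f2, Rrm2 and Ccne1. Plk1 measured 76.6, 69.4 and 72.5 CPM in the Rag2-/- controls and 83.99, 80.3, 87.3 and 81.8 CPM in TRUC (log2 difference 0.19, SE 0.21, adjusted p = 0.465). Plk1, a kinase of mitotic entry and the spindle, was thus near the control level while Cdk1 and Ccnb1 rose, and it did not pass the test. Cenpf was at 36.7, 29.5 and 25.4 CPM in the controls and at 48.2, 46.3, 49.8 and 43.1 CPM in TRUC mice (log2 difference 0.62, SE 0.28, adjusted p = 0.0729). Cenpf, a protein of the outer kinetochore, had the largest difference short of the threshold. By role, 7 of 8 mitotic cyclins and kinases, 7 of 7 genes of the checkpoint and anaphase, 9 of 10 of the spindle, kinetochore and cytokinesis, both mitotic transcription factors and both chromatin genes rose, with medians of 1.56, 1.53, 1.30, 1.403 and 1.33.

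The size of the TRUC change depended on the control. Against the mice labelled Rag1-/- control 32 of the 52 rose (22.9% of all genes), and against the wild-type controls 39 (26.6%), alternatives chosen after seeing that the control groups differed. E2f2 was then 2.24-fold and 3.25-fold higher in TRUC and still passed the test (adjusted p = 0.000147 and 1.38e-06). Pcna had a log2 difference of 0.42 (adjusted p = 0.0377) against the labelled Rag1-/- controls and of -0.08 (adjusted p = 0.686) against the wild-type controls, whose levels overlapped with TRUC. These controls also differ from TRUC in strain label or genotype. Neutrophil markers (S100a8, S100a9, Csf3r, Mpo) summed to 746 to 1221 CPM in TRUC and 0.974 to 1.96 CPM in the controls, smooth muscle markers to 2966 to 4349 and 5975 to 6582, and epithelial markers (Epcam, Cdh1, Vil1, Krt8, Krt18, Krt20, Cdx2) to 11038 to 11999 and 8580.3 to 9334. Of the epithelial markers Krt20 was at 1685.5 to 1919 CPM in TRUC and 574 to 718 in the controls, and Krt8 at 4750 to 5279 and 3834 to 3933. Epcam, Cdh1 and Cdx2 overlapped with the controls. Crypt stem cell markers (Lgr5, Ascl2, Smoc2, Axin2) summed lower, at 48.1 to 57.0 against 78.5 to 87.6 CPM, although Smoc2 alone overlapped. Macrophage markers (Adgre1, Cd68, Csf1r, Itgam) were higher, at 94.6 to 136 against 46.1 to 68.5, and neither sum overlapped. The sum of the exocrine pancreas list (Prss2, Cela1, Cpa1, Pnlip) followed Cela1 alone, at 55.3 to 83.0 CPM in TRUC and 439.6 to 477 in the controls. Prss2 went the other way, at 0.977 to 4.27 against 0 to 0.0885 CPM, and Cpa1 and Pnlip had next to no counts in either group. The summed level of the 52 genes divided by that of the epithelial markers was 0.326 to 0.350 in TRUC and 0.174 to 0.194 in the controls. The groups did not overlap on that scale either, although the epithelial sum follows Krt8 and Krt20 more than Epcam or Cdh1. The part of cell composition in the rise was not tested.

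**Figure D2:**
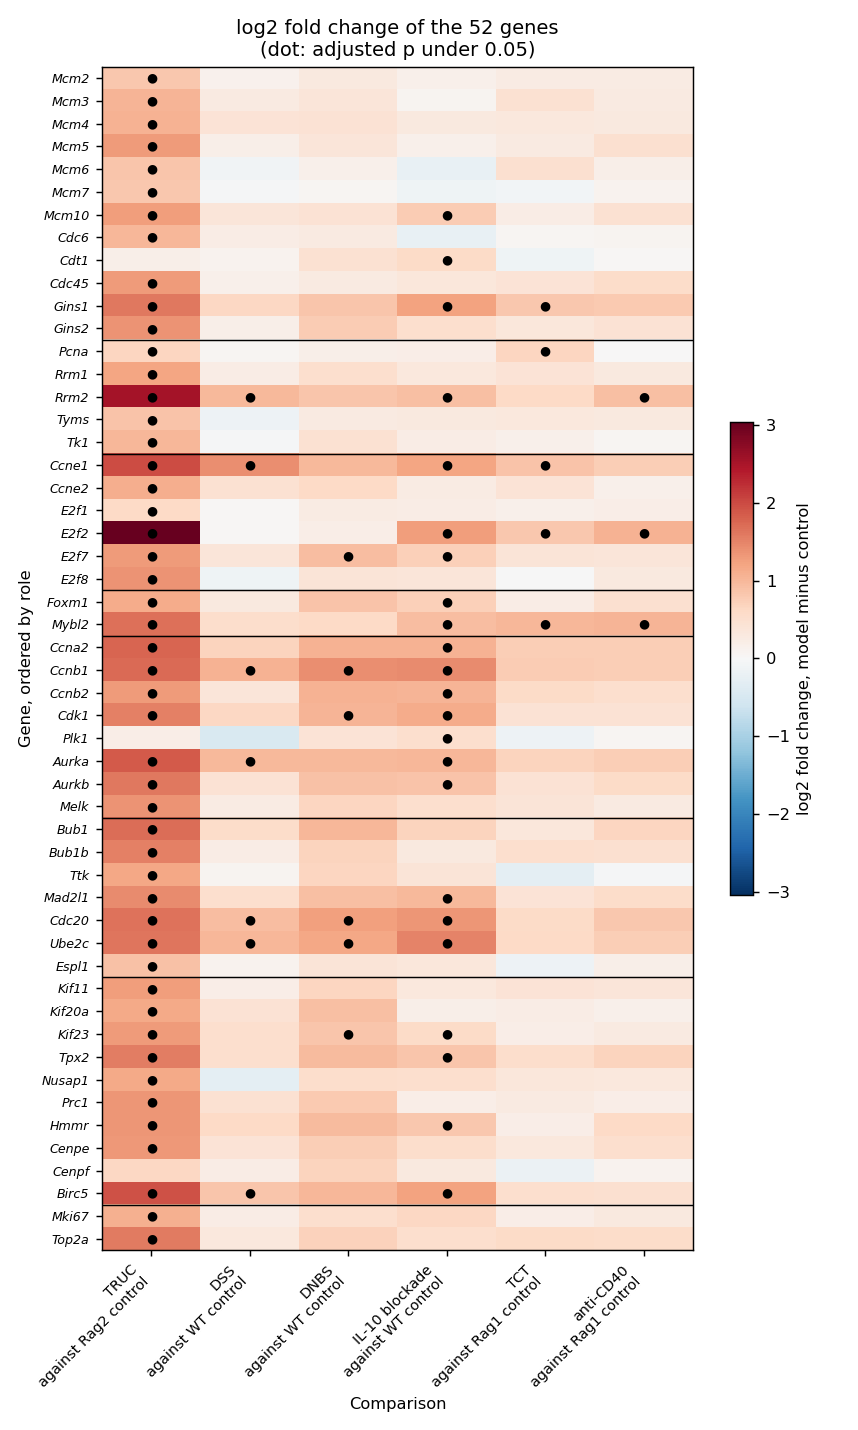
Log2 difference of each of the 52 genes between each model and its own control, with genes in rows by role and the 6 comparisons in columns; red is higher and blue lower in the model, and a dot stands for an adjusted p under 0.05. The TRUC column is dotted for 49 genes, IL-10 blockade for 23, and the other columns for 3 to 7.

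In the family of the untreated wild-type controls, most genes were called under IL-10 blockade, which has 4 mice against 3 in the other models, and the median difference was largest in DNBS. Under IL-10 blockade 23 of the 52 genes rose (27.2% of all genes), so the share of the module was above that of all genes, and none was lower (26.1%). DSS raised 7 genes (17.7% of all genes) and lowered none (16.3%), which is a smaller share than among all genes. DNBS raised 6 (3.95%) and lowered none (2.21%), a larger share than among all genes. At an unadjusted p under 0.05, 25 genes were higher under IL-10 blockade (29.7% of all genes), 9 in DSS (23.0%) and 29 in DNBS (14%). At that threshold 0 were lower under IL-10 blockade (29.2%), 1 in DSS (21.1%) and 0 in DNBS (10.4%). The 3 comparisons share their control mice. Every mouse of the model lay above every control in 26 genes under IL-10 blockade (27.6% of all genes), in 5 in DSS (25.9%) and in 34 in DNBS (15.6%). Median differences were 0.51, 0.31 and 0.67 (log2), against -0.01, 0.02 and 0.01 over all genes.

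Mcm2 had 51.6, 51.2 and 55.9 CPM in the wild-type controls, 80.7, 42.5 and 50.9 in DSS, 44.01, 67.5 and 84.4 in DNBS, and 62.5, 60.3, 69.2 and 43.3 under IL-10 blockade, with log2 differences of 0.13 (SE 0.25), 0.30 (SE 0.25) and 0.15 (SE 0.23) and adjusted p of 0.709, 0.47 and 0.598. Mcm5 measured 79.3, 64.9 and 74.5 CPM in the wild-type controls, 126, 51.8 and 67.4 in DSS, 66.2, 85.2 and 129 in DNBS, and 96.4, 74.0, 96.95 and 59.1 under IL-10 blockade, with log2 differences of 0.17 (SE 0.30), 0.36 (SE 0.30) and 0.16 (SE 0.28) and adjusted p of 0.696, 0.472 and 0.641. Both Mcm genes overlapped with the controls in all 3 models, and the highest values in DSS and DNBS were those of DSS 5 and DNBS 16. Pcna was at 189, 170.2 and 173 CPM in the wild-type controls, 233, 152 and 166 in DSS, 171, 174 and 261 in DNBS, and 215, 200.0, 216 and 188 under IL-10 blockade, with log2 differences of 0.05 (SE 0.17), 0.19 (SE 0.17) and 0.21 (SE 0.16) and adjusted p of 0.857, 0.53 and 0.29. Pcna, per length the most abundant gene of the module in untreated colon at 74.0 CPM per kilobase of exon, had its highest level in DNBS 16 and passed the test in none of the 3. Rrm2 had 24.5, 18.6 and 15.99 CPM in the wild-type controls, 59.2, 22.4 and 35.6 in DSS, 24.5, 32.1 and 50.1 in DNBS, and 45.5, 31.4, 36.7 and 35.5 under IL-10 blockade, with log2 differences of 0.99 (SE 0.32), 0.85 (SE 0.32) and 0.92 (SE 0.31) and adjusted p of 0.0201, 0.107 and 0.0143. Ccne1 measured 4.65, 4.06 and 6.23 CPM in the wild-type controls, 18.2, 10.9 and 10.6 in DSS, 5.79, 10.3 and 13.6 in DNBS, and 12.7, 11.7, 12.4 and 8.57 under IL-10 blockade, with log2 differences of 1.41 (SE 0.30), 0.99 (SE 0.30) and 1.19 (SE 0.29) and adjusted p of 0.000955, 0.0515 and 0.00147. Rrm2 and Ccne1 rose in DSS and under IL-10 blockade, and in DNBS both fell short of the threshold. E2f1 was at 13.1, 12.7 and 12.1 CPM in the wild-type controls, 18.5, 10.73 and 9.84 in DSS, 10.99, 17.1 and 16.8 in DNBS, and 14.3, 15.8, 17.6 and 10.9 under IL-10 blockade, with log2 differences of 0.05 (SE 0.23), 0.24 (SE 0.23) and 0.21 (SE 0.22) and adjusted p of 0.898, 0.54 and 0.418. E2f1 lay on both sides of the controls' range in each of the 3 models.

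Ccne1 was the gene with the largest rise in DSS and the one held in all 6 left-out fits of that comparison. E2f2 had 31.2, 25.3 and 39.3 CPM in the wild-type controls, 42.4, 29.3 and 26.2 in DSS, 26.04, 28.9 and 56.04 in DNBS, and 84.99, 75.7, 70.2 and 78.7 under IL-10 blockade, with log2 differences of 0.03 (SE 0.23), 0.21 (SE 0.23) and 1.28 (SE 0.22) and adjusted p of 0.926, 0.594 and 4.66e-05. E2f2 rose under IL-10 blockade, in every mouse, and lay within or close to the control range in DSS and in 2 of 3 DNBS mice. Gins1 measured 6.86, 5.79 and 6.97 CPM in the wild-type controls, 16.4, 6.36 and 7.60 in DSS, 8.72, 9.54 and 17.2 in DNBS, and 19.4, 11.5, 12.3 and 18.1 under IL-10 blockade, with log2 differences of 0.64 (SE 0.31), 0.85 (SE 0.31) and 1.23 (SE 0.29) and adjusted p of 0.113, 0.0942 and 0.00134. Gins1, a subunit of the GINS complex of the helicase, joined the 5 largest rises under IL-10 blockade. E2f7 was at 4.42, 3.86 and 3.61 CPM in the wild-type controls, 7.43, 3.76 and 4.08 in DSS, 6.39, 6.90 and 9.64 in DNBS, and 7.76, 6.55, 5.83 and 5.86 under IL-10 blockade, with log2 differences of 0.36 (SE 0.28), 0.94 (SE 0.28) and 0.71 (SE 0.27) and adjusted p of 0.333, 0.0449 and 0.0278. E2f7, an E2F that represses, was among the 6 genes that rose in DNBS.

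Mitotic genes of the same family had larger median differences, given by role below. Foxm1 had 16.6, 11.4 and 12.1 CPM in the wild-type controls, 25.6, 14.6 and 8.64 in DSS, 19.2, 23.6 and 30.5 in DNBS, and 29.8, 19.2, 23.2 and 16.6 under IL-10 blockade, with log2 differences of 0.29 (SE 0.30), 0.87 (SE 0.30) and 0.73 (SE 0.29) and adjusted p of 0.487, 0.084 and 0.0354. Foxm1 rose under IL-10 blockade and was called there in 3 of 7 left-out fits. Cdk1 measured 38.1, 33.6 and 29.8 CPM in the wild-type controls, 77.98, 44.9 and 32.8 in DSS, 51.8, 62.2 and 92.5 in DNBS, and 103, 61.9, 66.6 and 66.4 under IL-10 blockade, with log2 differences of 0.62 (SE 0.29), 1.02 (SE 0.29) and 1.14 (SE 0.28) and adjusted p of 0.104, 0.0386 and 0.00164. Ccnb1 was at 37.3, 30.97 and 22.1 CPM in the wild-type controls, 95.03, 55.6 and 37.3 in DSS, 60.9, 71.7 and 108 in DNBS, and 122, 68.7, 69.2 and 63.99 under IL-10 blockade, with log2 differences of 1.06 (SE 0.34), 1.41 (SE 0.34) and 1.43 (SE 0.32) and adjusted p of 0.0175, 0.017 and 0.00082. Ccnb1 rose in all 3 models and Cdk1 in 2, and in DNBS the mice lay above all controls for both. Aurkb had 18.4, 17.6 and 16.2 CPM in the wild-type controls, 36.5, 21.1 and 13.3 in DSS, 26.5, 28.1 and 41.96 in DNBS, and 41.5, 28.8, 32.0 and 24.3 under IL-10 blockade, with log2 differences of 0.44 (SE 0.28), 0.88 (SE 0.28) and 0.86 (SE 0.27) and adjusted p of 0.236, 0.0629 and 0.01. Cdc20 measured 33.5, 28.4 and 24.5 CPM in the wild-type controls, 75.2, 56.8 and 34.4 in DSS, 50.7, 65.5 and 90.9 in DNBS, and 107, 61.01, 69.6 and 53.1 under IL-10 blockade, with log2 differences of 0.95 (SE 0.31), 1.26 (SE 0.31) and 1.34 (SE 0.30) and adjusted p of 0.021, 0.0195 and 0.000718. Aurkb rose under IL-10 blockade and Cdc20, the anaphase activator, in all 3 models. Mki67 was at 177, 150.2 and 121 CPM in the wild-type controls, 281, 150.5 and 95.8 in DSS, 191, 178 and 275 in DNBS, and 316, 202, 205 and 205 under IL-10 blockade, with log2 differences of 0.23 (SE 0.30), 0.52 (SE 0.30) and 0.63 (SE 0.28) and adjusted p of 0.576, 0.289 and 0.0639. Top2a had 183, 161 and 144 CPM in the wild-type controls, 315, 147 and 152 in DSS, 217, 201 and 383 in DNBS, and 306, 208, 245 and 167 under IL-10 blockade, with log2 differences of 0.33 (SE 0.32), 0.71 (SE 0.32) and 0.51 (SE 0.30) and adjusted p of 0.449, 0.169 and 0.159. Neither Mki67 nor Top2a passed the test in any of the 3, although all DNBS mice and all IL-10 blockade mice lay above the controls for Mki67. Plk1 measured 60.9, 68.5 and 72.4 CPM in the wild-type controls, 65.4, 55.5 and 25.6 in DSS, 74.05, 104 and 93.2 in DNBS, and 120.5, 85.7, 103 and 71.4 under IL-10 blockade, with log2 differences of -0.46 (SE 0.22), 0.42 (SE 0.22) and 0.50 (SE 0.21) and adjusted p of 0.112, 0.238 and 0.0466. Plk1 was called higher under IL-10 blockade with 1 mouse inside the control range, in 2 of 7 left-out fits and not with a replicate block (0.42), and DSS 8 had the lowest level of the family.

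Ube2c was at 30.1, 29.2 and 22.1 CPM in the wild-type controls, 74.1, 57.6 and 31.98 in DSS, 42.5, 54.5 and 87.8 in DNBS, and 108, 62.9, 64.2 and 75.6 under IL-10 blockade, with log2 differences of 1.01 (SE 0.33), 1.18 (SE 0.33) and 1.52 (SE 0.31) and adjusted p of 0.0193, 0.0341 and 0.000367. Ube2c, the ubiquitin-conjugating enzyme of the anaphase-promoting complex, rose in all 3 models and had the largest rise under IL-10 blockade. Aurka had 23.5, 24.2 and 14.8 CPM in the wild-type controls, 62.2, 32.2 and 29.1 in DSS, 34.5, 34.7 and 55.7 in DNBS, and 57.2, 33.4, 38.6 and 37.5 under IL-10 blockade, with log2 differences of 0.98 (SE 0.30), 0.99 (SE 0.30) and 1.00 (SE 0.29) and adjusted p of 0.0152, 0.0517 and 0.006. Aurka was among the 5 largest rises in DSS. Kif23 measured 38.2, 35.97 and 25.7 CPM in the wild-type controls, 68.9, 39.2 and 32.9 in DSS, 52.5, 58.5 and 67.4 in DNBS, and 62.8, 40.4, 48.5 and 46.9 under IL-10 blockade, with log2 differences of 0.50 (SE 0.25), 0.84 (SE 0.25) and 0.58 (SE 0.23) and adjusted p of 0.121, 0.045 and 0.0414. Kif23, a motor of cytokinesis, completed the 6 genes that rose in DNBS with Ccnb1, Cdc20, Ube2c, Cdk1 and E2f7. Ccna2 was at 48.2, 44.2 and 34.04 CPM in the wild-type controls, 103, 61.7 and 37.3 in DSS, 62.9, 73.1 and 126 in DNBS, and 132, 72.7, 75.8 and 67.6 under IL-10 blockade, with log2 differences of 0.68 (SE 0.35), 1.05 (SE 0.35) and 1.05 (SE 0.34) and adjusted p of 0.141, 0.0745 and 0.0118. Ccna2, the cyclin of DNA synthesis and early mitosis, had the largest difference short of the threshold in both DSS and DNBS. Bub1 had 13.1, 12.2 and 10.74 CPM in the wild-type controls, 29.5, 12.2 and 10.9 in DSS, 20.4, 20.7 and 31.1 in DNBS, and 25.5, 17.7, 19.4 and 14.6 under IL-10 blockade, with log2 differences of 0.55 (SE 0.35), 1.00 (SE 0.35) and 0.68 (SE 0.33) and adjusted p of 0.23, 0.0807 and 0.0822. Bub1, a checkpoint kinase, held that place under IL-10 blockade.

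By role, the calls under IL-10 blockade lay in mitotic cyclins and kinases (7 of 8, median 1.01), both mitotic transcription factors, the spindle, kinetochore and cytokinesis (4 of 10), the checkpoint and anaphase (3 of 7), E cyclins and E2F factors (3 of 6), licensing and helicase (3 of 12) and the clamp and nucleotide supply (1 of 5). Of the 23 replication genes 7 rose and of the 29 mitotic genes 16, where 27.2% of all genes rose. In DNBS the same counts were 1 and 5 (3.95% of all genes), and in DSS 2 and 5 (17.7%). The share of replication genes was thus near that of all genes under IL-10 blockade and in DNBS. In DSS neither share was above that of all genes. Median differences of the replication and the mitotic genes were 0.31 and 0.68 under IL-10 blockade, 0.39 and 0.87 in DNBS and 0.17 and 0.44 in DSS (log2). The mitotic transcripts summed to 0.990 to 1.27 times the replication transcripts in the untreated mice, 1.41 to 1.92 times under IL-10 blockade, 1.58 to 1.71 times in DNBS and 1.04 to 1.62 times in DSS. Of these 3 models only DSS overlapped with the controls on that ratio. The wild-type controls had the lowest ratio of the control groups. It was 1.31 to 1.62 in the Rag2-/- controls and 1.72 to 1.87 in TRUC. In the labelled Rag1-/- controls it was 1.56 to 1.70, with anti-CD40 1.71 to 1.915 and in TCT 1.46 to 1.835. TRUC and anti-CD40 thus also lay above their controls, and TCT overlapped.

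Some genes went against the rest of their role. Under IL-10 blockade Mcm6, Mcm7 and Cdc6 had negative differences of -0.23, -0.13 and -0.23, and in DSS Mcm6, Mcm7, Tyms, Tk1, E2f8, Nusap1 and Plk1 had -0.10, -0.04, -0.15, -0.04, -0.14, -0.29 and -0.46, none of them past the threshold. DSS and DNBS, both chemical models, were also compared directly, with 1 member lower in DSS (11.2% of all genes), Plk1, and none higher (11.4%), and at an unadjusted p under 0.05 5 lower (17.6%) and 0 higher (18.0%). Its level averaged 48.8 CPM in DSS and 90.3 in DNBS, a log2 difference of -0.88 (SE 0.22, adjusted p = 0.00663), and the groups did not overlap.

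These counts leaned on single mice. Without DSS 5, 1 gene rose in DSS (Ccne1 was called in every left-out fit) and 3 fell, Tk1 at -0.61, Plk1 at -0.74 and Nusap1 at -0.83, and 23 genes were lower in DSS than in DNBS. DSS 5 had neutrophil markers at 159 CPM, against 296 and 1424 in DSS 6 and DSS 8 and 0.902 to 1.30 in the controls. Without untreated mouse 2 or 4, DSS raised 4 and 1, and with DSS and control mice fitted alone it raised 1 (13.6% of all genes). In DNBS none rose without DNBS 16 or without untreated mouse 2 or 4, 1 rose without DNBS 14 or untreated mouse 1, and 19 rose without DNBS 11. DESeq2 on the DNBS and control mice alone called 28 (5.94% of all genes). Smooth muscle markers were at 3786 CPM in DNBS 16 and 5510 and 6866 in the other DNBS mice. Without IL-10 blockade 1, 15 genes rose under IL-10 blockade, and 14 or 15 without untreated mouse 2 or 4. Of the 23 genes 12 were called in all 7 left-out fits, as against 48 of the 49 in TRUC.

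Epithelial markers summed to 10974 to 16302 CPM under IL-10 blockade and 6751 to 8040 in the controls, and plasma cell markers (Jchain, Mzb1, Sdc1) to 1531 to 2190 and 230 to 561. Of the epithelial markers Krt20 was at 1693 to 3475 CPM under IL-10 blockade and 360.1 to 526 in the controls, and Cdh1 at 1198 to 1455 and 1073 to 1318. T-cell markers were at 67.03 to 115 CPM under IL-10 blockade and 9.59 to 16.5 in the controls, neutrophil markers at 127 to 326 and 0.902 to 1.30, smooth muscle markers at 2626 to 4949 and 6483 to 8053, and crypt stem cell markers at 42.6 to 74.4 and 76.2 to 85.7. The crypt stem cell sum was at 34.6 to 61.7 CPM in DSS, below the controls, and at 93.1 to 139 in DNBS, above them. Its members did not move together. In DNBS Smoc2 was at 48.4 to 90.6 CPM against 37.6 to 38.8, and Lgr5 was also higher. There Ascl2 was lower, at 2.95 to 4.66 against 5.18 to 6.81, and Axin2 was within the control range. In DSS Lgr5 and Ascl2 were lower, whereas Smoc2 in DSS 8, at 45.3 CPM, was above the controls. Under IL-10 blockade Smoc2 and Axin2 overlapped with the controls. Macrophage markers were at 241 to 511 and 117 to 155 in DSS and DNBS, against 83.9 to 116, and epithelial markers at 5448 to 6743 and 7404 to 9906. The ratio of the 52 genes to the epithelial markers was 0.146 to 0.348 under IL-10 blockade, 0.334 to 0.405 in DNBS, 0.273 to 0.673 in DSS and 0.230 to 0.321 in the controls, so on that scale DNBS alone of the 3 lay apart from the controls. The part of cell composition in the differences was not tested.

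**Figure D3:**
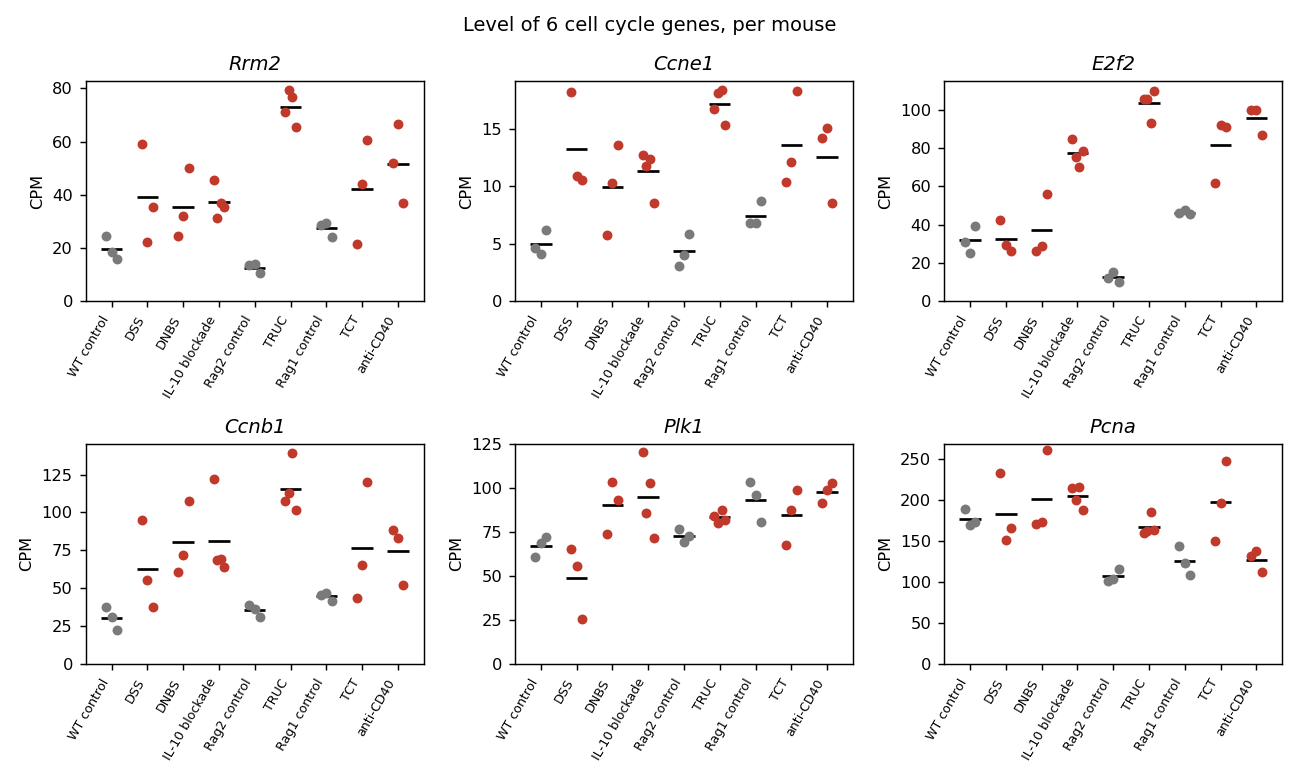
Levels of Rrm2, Ccne1, E2f2, Ccnb1, Plk1 and Pcna in each mouse (TMM-scaled CPM, axes from 0), 1 panel a gene, 1 point a mouse and a line at the group mean. E2f2 lies above the controls in all mice of IL-10 blockade, TRUC, TCT and anti-CD40, and Plk1 is near the control level in TRUC and lowest in DSS 8.

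In the family labelled Rag1-/-, few members passed the test. TCT raised 5 of the 52 genes (16.1% of all genes) and lowered none (14%), and anti-CD40 raised 3 (10.9%) and lowered none (10.7%), so in the fit of all groups both shares were below that of all genes. For anti-CD40 this turned on the fit: with anti-CD40 and control mice fitted alone, as given below, the share was above that of all genes. At an unadjusted p under 0.05, 8 were higher in TCT (20.9% of all genes) and 11 with anti-CD40 (17.2%), and none was lower (19.5% and 18.0%). Every model mouse lay above every labelled control in 5 genes in TCT (21.4% of all genes) and in 18 with anti-CD40 (19.2%). Median differences were 0.39 and 0.41 (log2). Both comparisons share the labelled controls, whose Rag1 and Rag2 transcripts differ from those of TCT as given above.

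Mcm2 measured 56.9, 52.7 and 46.2 CPM in the labelled controls, 37.03, 65.2 and 82.1 in TCT and 57.8, 77.9 and 49.9 with anti-CD40, with log2 differences of 0.24 (SE 0.25) and 0.25 (SE 0.25) and adjusted p of 0.5 and 0.503. Mcm5 was at 75.2, 67.2 and 54.05 CPM in the labelled controls, 44.6, 76.5 and 117 in TCT and 94.5, 109.8 and 70.2 with anti-CD40, with log2 differences of 0.28 (SE 0.30) and 0.48 (SE 0.30) and adjusted p of 0.519 and 0.256. TCT 1 lay below every control for both Mcm genes while TCT 5 lay above them. Pcna had 144, 124 and 109 CPM in the labelled controls, 151, 196 and 248 in TCT and 132, 138 and 112 with anti-CD40, with log2 differences of 0.66 (SE 0.17) and 0.02 (SE 0.17) and adjusted p of 0.0054 and 0.964. Pcna rose in TCT, where all mice lay above the controls, and was within the control range in all 3 anti-CD40 mice. Rrm2 measured 28.6, 29.5 and 24.3 CPM in the labelled controls, 21.4, 44.2 and 60.6 in TCT and 52.05, 66.5 and 36.7 with anti-CD40, with log2 differences of 0.61 (SE 0.32) and 0.91 (SE 0.32) and adjusted p of 0.153 and 0.0431. Ccne1 was at 6.81, 6.85 and 8.69 CPM in the labelled controls, 10.4, 12.1 and 18.3 in TCT and 14.2, 15.1 and 8.54 with anti-CD40, with log2 differences of 0.87 (SE 0.30) and 0.76 (SE 0.30) and adjusted p of 0.0284 and 0.0698. Rrm2 rose with anti-CD40 and Ccne1 in TCT. E2f1 had 13.1, 11.9 and 8.52 CPM in the labelled controls, 10.04, 12.6 and 14.9 in TCT and 10.9, 16.5 and 11.3 with anti-CD40, with log2 differences of 0.16 (SE 0.23) and 0.20 (SE 0.23) and adjusted p of 0.654 and 0.571. E2f1 overlapped in both models. E2f2 measured 46.05, 47.4 and 45.4 CPM in the labelled controls, 61.8, 92.4 and 91.2 in TCT and 100.2, 99.9 and 87.05 with anti-CD40, with log2 differences of 0.82 (SE 0.22) and 1.05 (SE 0.22) and adjusted p of 0.0071 and 0.00213. E2f2 rose in both, was the largest rise with anti-CD40 and was called in all 12 left-out fits of the 2 comparisons. Gins1 was at 7.86, 6.56 and 7.83 CPM in the labelled controls, 9.61, 12.7 and 17.1 in TCT and 14.2, 15.01 and 9.26 with anti-CD40, with log2 differences of 0.82 (SE 0.31) and 0.79 (SE 0.31) and adjusted p of 0.046 and 0.0689. Gins1 rose in TCT and did not pass the test with anti-CD40.

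Foxm1 had 22.9, 22.4 and 22.98 CPM in the labelled controls, 15.7, 24.4 and 40.4 in TCT and 32.8, 36.9 and 26.9 with anti-CD40, with log2 differences of 0.24 (SE 0.30) and 0.50 (SE 0.30) and adjusted p of 0.597 and 0.241. Mybl2 measured 8.35, 11.7 and 7.40 CPM in the labelled controls, 10.1, 16.5 and 28.8 in TCT and 18.7, 22.9 and 15.1 with anti-CD40, with log2 differences of 1.01 (SE 0.33) and 1.04 (SE 0.33) and adjusted p of 0.0247 and 0.0286. Mybl2, the Myb factor that joins the MuvB core at mitotic promoters, rose in both models, though TCT 1 lay inside the control range. Cdk1 was at 52.5, 48.9 and 45.2 CPM in the labelled controls, 39.7, 58.4 and 100.3 in TCT and 74.4, 75.2 and 50.5 with anti-CD40, with log2 differences of 0.44 (SE 0.29) and 0.45 (SE 0.29) and adjusted p of 0.272 and 0.28. Ccnb1 had 45.2, 47.0 and 41.2 CPM in the labelled controls, 43.3, 65.6 and 119.8 in TCT and 88.2, 83.0 and 51.7 with anti-CD40, with log2 differences of 0.78 (SE 0.33) and 0.74 (SE 0.33) and adjusted p of 0.0817 and 0.113. Ccnb1 was the gene with the largest difference short of the threshold in TCT. Aurkb measured 24.6, 27.8 and 25.3 CPM in the labelled controls, 20.6, 32.4 and 51.9 in TCT and 39.2, 43.04 and 33.7 with anti-CD40, with log2 differences of 0.43 (SE 0.28) and 0.57 (SE 0.28) and adjusted p of 0.263 and 0.146. Cdc20 was at 58.9, 49.1 and 43.4 CPM in the labelled controls, 39.1, 71.03 and 115 in TCT and 89.2, 105 and 71.98 with anti-CD40, with log2 differences of 0.58 (SE 0.31) and 0.81 (SE 0.31) and adjusted p of 0.163 and 0.0597. Cdc20 held that place with anti-CD40, with all mice above the controls. Mki67 had 229, 213 and 183 CPM in the labelled controls, 142, 229 and 345 in TCT and 311, 272 and 184 with anti-CD40, with log2 differences of 0.20 (SE 0.30) and 0.29 (SE 0.30) and adjusted p of 0.665 and 0.515. Top2a measured 179, 196 and 169 CPM in the labelled controls, 143, 234 and 437 in TCT and 295, 306 and 206 with anti-CD40, with log2 differences of 0.58 (SE 0.32) and 0.57 (SE 0.32) and adjusted p of 0.174 and 0.208. For both the TCT mice spread from below the controls to the highest level of the family. Plk1 was at 104, 96.3 and 80.6 CPM in the labelled controls, 67.4, 87.7 and 98.7 in TCT and 91.3, 99.1 and 103 with anti-CD40, with log2 differences of -0.14 (SE 0.22) and 0.06 (SE 0.22) and adjusted p of 0.667 and 0.871. Plk1 was close to the controls in both models.

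The genes with a negative difference in TCT, against the rest of their role, were Mcm7 (-0.09), Cdt1 (-0.13), E2f8 (-0.01), Plk1 (-0.14), Ttk (-0.29), Espl1 (-0.15) and Cenpf (-0.19), and with anti-CD40 Ttk (-0.03), none past the threshold. In TCT 4 of the 23 replication genes and 1 of the 29 mitotic genes rose (16.1% of all genes), and with anti-CD40 2 and 1 (10.9%). In this fit the share of replication genes in TCT was near that of all genes, and the other shares were below it. Median differences of replication and mitotic genes were 0.35 and 0.42 in TCT and 0.30 and 0.50 with anti-CD40.

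Which mouse was left out changed these counts. Without TCT 1, 16 genes rose in TCT, and without TCT 5 only E2f2 did. TCT 1 had T-cell markers (Cd3e, Cd3g, Cd3d, Cd4, Cd8a) at 158 CPM and TCT 5 at 87.0, with TCT 3 at 116 and the labelled controls at 3.49 to 4.86, so the mouse with most T-cell transcript had the lowest summed level of the module. Without labelled control 2, 3 or 4, TCT raised 2 or 3 genes. With anti-CD40, leaving out mouse 6 or 7, or labelled control 2 or 4, left E2f2 alone, and leaving out mouse 8, with smooth muscle markers at 6875 CPM against 2779 and 3355, gave 6 genes. With anti-CD40 and control mice fitted alone, edgeR called 16 (11.3% of all genes) and DESeq2 24 (12.4%). Measured against the Rag2-/- controls, TCT raised 40 (17.4% of all genes) and anti-CD40 35 of the genes (12.4%), and against the wild-type controls TCT raised 19 (16.9%). Those controls differ from both models in strain or genotype labels too. The ratio of the 52 genes to epithelial markers was 0.194 to 0.464 in TCT, 0.248 to 0.324 with anti-CD40 and 0.246 to 0.307 in the labelled controls. Crypt stem cell markers summed to 64.9 to 75.1 CPM in TCT and 64.4 to 86.5 with anti-CD40, below the 97.98 to 124 of the labelled controls. Of these markers Axin2 lay below the labelled controls in both models, and Lgr5 and Smoc2 overlapped with them. Macrophage markers were at 227 to 337 and 63.8 to 77.9, above 37.2 to 55.2. The part of cell composition was not tested.

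The untreated controls themselves differed in the module. The 52 genes summed to 1509 to 1668 CPM in the Rag2-/- mice, 1850 to 2209.9 in the wild-type mice and 2052 to 2480.5 in the mice labelled Rag1-/-. All 52 genes had a positive difference between labelled Rag1-/- and Rag2-/- controls (median 0.56), and in 39 every labelled Rag1-/- mouse lay above every Rag2-/- mouse (12.1% of all genes). In that comparison 2 members passed the test, of 13 genes among the 18616 (0.0698%): E2f2, at 46.05, 47.4 and 45.4 CPM against 12.3, 15.3 and 10.2 (log2 difference 1.88, SE 0.24, adjusted p = 0.000172), and Espl1, the separase that cleaves cohesin, at 22.1, 25.2 and 20.3 against 10.71, 10.2 and 8.53 (log2 difference 1.202, SE 0.23, adjusted p = 0.0412). The wild-type controls were higher than the Rag2-/- controls in 2 of the 52 genes, a smaller share than among all genes (4.86%). They were Pcna (log2 difference 0.73, SE 0.17, adjusted p = 0.00694) and E2f2 (log2 difference 1.34, SE 0.23, adjusted p = 0.000355). The first of these contrasts joins a strain label with a genotype label and the second a genotype, with mature T and B cells in the wild-type mice alone. B-cell markers summed to 71.1 to 119 CPM in the wild-type mice and 1.30 to 1.96 in Rag2-/- mice.

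Across the 6 models, no gene rose in more than 4. The 7 that rose in 4 were Rrm2, Ccne1, E2f2, Mybl2, Ccnb1, Cdc20 and Ube2c, 6 rose in 3, 9 in 2, 29 in 1, and Cenpf in none. All of the 7 rose in TRUC and under IL-10 blockade. Ccnb1, Cdc20 and Ube2c, which act from mitotic entry to anaphase, rose in DSS and DNBS too, whereas E2f2 and Mybl2 rose in TCT and with anti-CD40, Rrm2 in DSS and with anti-CD40, and Ccne1 in DSS and TCT. Mybl2 had log2 differences of 1.67 in TRUC, 0.94 in IL-10 blockade, 1.01 in TCT, 1.04 in anti-CD40, 0.60 in DNBS and 0.54 in DSS. These groupings rest on which tests passed, and several comparisons share their control mice. The share of all genes that rose in as many comparisons is not given here, so the counts cannot be judged against it. The difference between models was tested on its own.

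In that test, of whether the difference from the own control is equal in all 6 models, 5 of the 52 genes differed, where 60.5% of all genes did. They were E2f2 (adjusted p = 7.81e-07), Plk1 (0.00725), Rrm2 (0.0104), Pcna (0.0174) and Bub1b (0.0306). E2f2 ranged from 0.03 in DSS and 0.21 in DNBS to 3.04 in TRUC, with 1.28, 0.82 and 1.05 in IL-10 blockade, TCT and anti-CD40. Rrm2 ranged from 0.61 in TCT to 2.54 in TRUC, and Plk1 from -0.46 in DSS to 0.50 under IL-10 blockade. Pcna ranged from 0.02 with anti-CD40 to 0.66 in TCT and 0.65 in TRUC, the last of which turned to -0.08 against the wild-type controls. Bub1b had log2 differences of 1.53 in TRUC, 0.29 in IL-10 blockade, 0.52 in TCT, 0.49 in anti-CD40, 0.68 in DNBS and 0.23 in DSS. Bub1b acts in the spindle checkpoint. The count of 5 became 37 without DSS 5, 27 without TCT 5 and 8 without DNBS 16 or TCT 1.

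**Figure D4:**
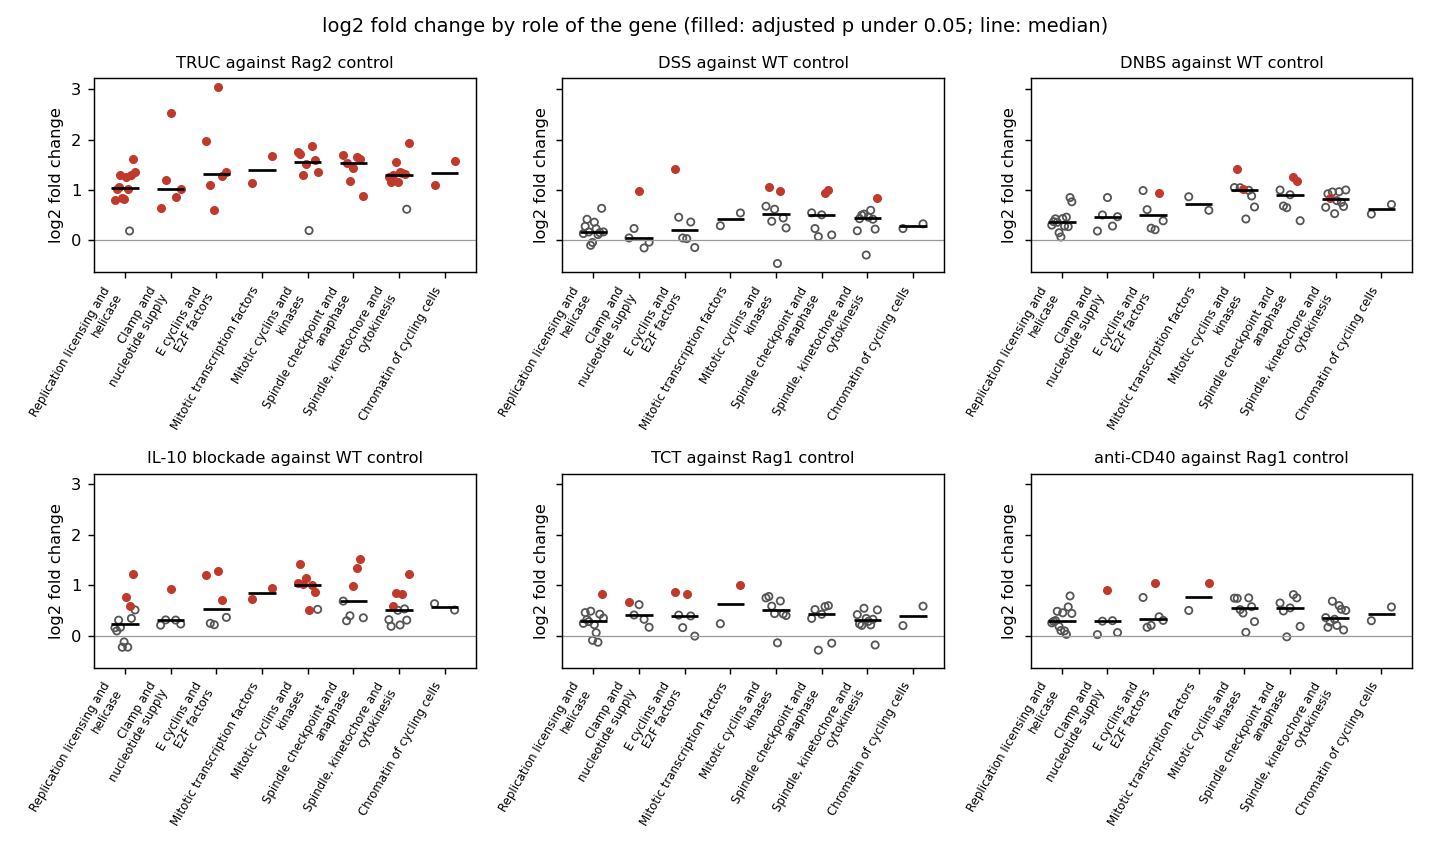
Median log2 difference of the genes of each of the 8 roles (line) and the single genes (points, filled at an adjusted p under 0.05), with 1 panel a comparison and log2 difference on the vertical axis. The mitotic cyclins and kinases reach a median of 1.56 in TRUC and 1.01 in DNBS and under IL-10 blockade, and the licensing genes lie lower in each comparison.

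Among 79 related genes, listed by role but with earlier results of these data known, 78 were tested (Cdkn2a had too few counts). In TRUC 44 rose (56.4% of the 78, against 22.4% of all genes) and 7 fell (8.97% against 23.4%). Under IL-10 blockade 18 rose (23.1% against 27.2%) and 9 fell (11.5% against 26.1%). In DSS 8 rose and 8 fell (10.3% each, against 17.7% and 16.3%), and in TCT 5 and 5 (6.41% each, against 16.1% and 14%). With anti-CD40 3 rose (3.85% against 10.9%) and 5 fell (6.41% against 10.7%), and in DNBS 3 rose (3.85% against 3.95%) and 0 fell. Outside TRUC these shares were thus below or near those of all genes. The 15 genes of condensin and the kinetochore all rose in TRUC, 5 did under IL-10 blockade, 2 in DNBS and 1 in TCT. Of 23 genes of origin recognition and the polymerases 14 rose in TRUC, and of 10 checkpoint and repair genes 4.

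Wee1, Mycn and Cdk6 fell in 5 of the 6 comparisons. Wee1 was at 33.2, 33.8 and 29.4 CPM in the wild-type controls, 21.5, 14.2 and 10.2 in DSS, 26.2, 25.98 and 23.9 in DNBS and 16.8, 15.4, 17.3 and 10.1 under IL-10 blockade (log2 differences -1.07, -0.34 and -1.11, adjusted p 0.000383, 0.303 and 5.69e-05). In the Rag-deficient groups it was at 25.1, 22.2 and 28.2 CPM in Rag2-/- controls and 20.9, 14.3, 17.1 and 19.8 in TRUC (log2 difference -0.48, SE 0.19, adjusted p = 0.0432), and at 36.2, 28.2 and 29.3 in the labelled Rag1-/- controls, 17.5, 16.3 and 19.6 in TCT and 16.4, 18.3 and 20.7 with anti-CD40 (log2 differences -0.81 and -0.76, adjusted p 0.00401 and 0.0111). Wee1, the kinase that holds Cdk1 inactive, fell in all but DNBS, and no model mouse of any of the 6 lay above its lowest control. Its fall in TRUC was called in 3 of 7 left-out fits, that with anti-CD40 in 4 of 6, and the other 3 in all. Mycn was at 5.64, 5.73 and 4.92 CPM in the wild-type controls, 1.26, 1.98 and 1.12 in DSS, 6.03, 6.98 and 3.58 in DNBS and 0.759, 0.624, 0.944 and 1.25 under IL-10 blockade (log2 differences -1.89, 0.03 and -2.59, adjusted p 0.000327, 0.971 and 3.94e-06). In the Rag-deficient groups it was at 2.39, 2.83 and 2.95 CPM in Rag2-/- controls and 0.959, 0.623, 0.183 and 0.651 in TRUC (log2 difference -2.13, SE 0.37, adjusted p = 9.80e-05), and at 5.35, 7.66 and 3.53 in the labelled Rag1-/- controls, 1.75, 0.684 and 1.11 in TCT and 0.470, 0.514 and 0.646 with anti-CD40 (log2 differences -2.22 and -3.31, adjusted p 7.39e-05 and 1.44e-05). Mycn, a Myc family factor, fell in the same 5 comparisons with all left-out fits. It is a low transcript, at 0.183 to 1.98 CPM in the mice of those 5 models. Cdk6 was at 25.5, 22.98 and 23.9 CPM in the wild-type controls, 18.8, 14.6 and 16.7 in DSS, 24.6, 19.1 and 16.5 in DNBS and 14.1, 10.8, 18.8 and 12.7 under IL-10 blockade (log2 differences -0.53, -0.26 and -0.77, adjusted p 0.0354, 0.411 and 0.00106). In the Rag-deficient groups it was at 23.02, 22.8 and 24.6 CPM in Rag2-/- controls and 11.9, 8.90, 11.5 and 10.02 in TRUC (log2 difference -1.15, SE 0.18, adjusted p = 3.43e-05), and at 38.7, 32.3 and 25.3 in the labelled Rag1-/- controls, 23.4, 17.4 and 17.7 in TCT and 17.8, 12.3 and 14.9 with anti-CD40 (log2 differences -0.72 and -1.10, adjusted p 0.00612 and 0.000431). Cdk6, a partner of D cyclins, also fell in those 5, in DSS in only 1 of 6 left-out fits.

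**Figure D5:**
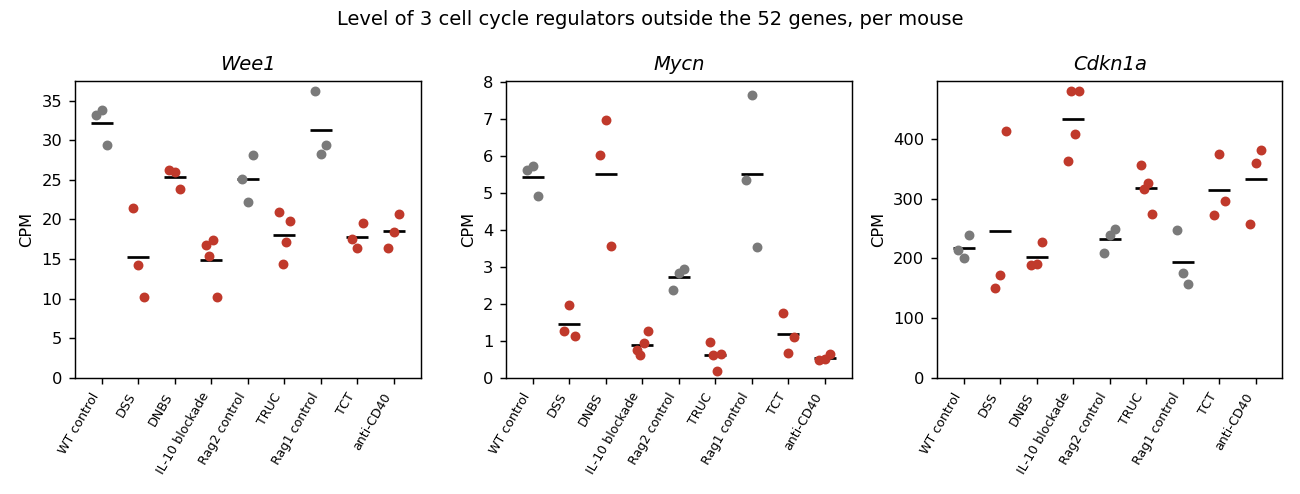
Levels of Wee1, Mycn and Cdkn1a in each mouse (TMM-scaled CPM, axes from 0), 1 point a mouse and a line at the group mean. Wee1 and Mycn lie below the controls in DSS, IL-10 blockade, TRUC, TCT and anti-CD40, and Cdkn1a above them under IL-10 blockade, TRUC, TCT and anti-CD40, of which TRUC did not pass the test.

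Cdkn1a was at 214, 200.2 and 239 CPM in the wild-type controls, 150.4, 172 and 414 in DSS, 189, 191 and 227 in DNBS and 363, 480.1, 408 and 480.3 under IL-10 blockade (log2 differences 0.17, -0.10 and 0.99, adjusted p 0.63, 0.836 and 0.00159). In the Rag-deficient groups it was at 209, 239.6 and 249 CPM in Rag2-/- controls and 356, 317, 326 and 275 in TRUC (log2 difference 0.45, SE 0.24, adjusted p = 0.124), and at 248, 176 and 157 in the labelled Rag1-/- controls, 272, 374 and 296 in TCT and 257, 359 and 382 with anti-CD40 (log2 differences 0.70 and 0.78, adjusted p 0.0398 and 0.0305). Cdkn1a, a CDK inhibitor induced by stress, rose in 3 comparisons. Cdkn1b, another, fell in TRUC (log2 difference -0.64, SE 0.15, adjusted p = 0.00145), DSS (log2 difference -0.81, SE 0.16, adjusted p = 0.000541) and under IL-10 blockade (log2 difference -0.51, SE 0.15, adjusted p = 0.00629), and Cdkn2b, an inhibitor of the D-cyclin kinases, in TRUC (-1.03), DSS (-1.31) and TCT (-1.02). Rbl2, a pocket protein of quiescent cells, fell in TRUC (-0.92), DSS (-0.56) and under IL-10 blockade (-0.95). E2f4, its usual E2F partner, rose in TRUC (0.48), under IL-10 blockade (0.74), in TCT (0.37) and with anti-CD40 (0.41). Lin52, a MuvB subunit, fell in TRUC (-0.58), under IL-10 blockade (-0.57) and with anti-CD40 (-0.48), whereas its partner Lin9 rose in TRUC (0.93).

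Of genes that promote the cycle, several rose in 2 or 3 comparisons. Ccnd1, a D cyclin, rose in DSS (log2 difference 1.12, SE 0.28, adjusted p = 0.00327), TRUC (log2 difference 0.78, SE 0.26, adjusted p = 0.0177) and under IL-10 blockade (log2 difference 0.73, SE 0.26, adjusted p = 0.0224). Ccnd2, another D cyclin, did not follow it. Its levels lay below the controls in TRUC (122 to 167 against 175 to 203 CPM) and with anti-CD40 (118 to 134 against 209 to 264). In DSS they lay above them (248 to 313 against 167 to 196), and in the other models they overlapped. Dbf4, the activator of the Cdc7 kinase at origins, rose in TRUC (1.55), DSS (0.75) and under IL-10 blockade (1.07). Myc was at 12.8, 19.98 and 21.1 CPM in the wild-type controls, 40.8, 39.1 and 56.2 in DSS, 21.98, 26.7 and 45.7 in DNBS and 23.9, 23.6, 39.3 and 32.3 under IL-10 blockade (log2 differences 1.34, 0.81 and 0.73, adjusted p 0.000305, 0.0541 and 0.0125). In the Rag-deficient groups it was at 25.3, 23.4 and 34.6 CPM in Rag2-/- controls and 31.5, 22.7, 23.7 and 24.4 in TRUC (log2 difference -0.12, SE 0.23, adjusted p = 0.707), and at 29.4, 32.05 and 38.2 in the labelled Rag1-/- controls, 22.7, 30.3 and 34.2 in TCT and 42.5, 41.1 and 43.1 with anti-CD40 (log2 differences -0.19 and 0.35, adjusted p 0.597 and 0.329). Myc rose in DSS and under IL-10 blockade and had no called difference elsewhere. Orc2 of the origin recognition complex rose in DSS (0.80), TRUC (0.73) and TCT (0.57), and Orc1 in TRUC (1.63). The passenger complex genes Cdca8 and Incenp rose in TRUC (1.59 and 1.35) and under IL-10 blockade (1.14 and 0.59), Cdca8 also in TCT (0.88) and Incenp also in DNBS (0.70). In TRUC the repair gene Brca1 (0.94), the phosphatase gene Cdc25c (1.65) and the kinetochore gene Ndc80 (1.49) rose too, each among the 2 largest changes of its list. Fen1, the flap nuclease, was called lower under IL-10 blockade (log2 difference -1.83, SE 0.75, adjusted p = 0.0449) on 0 to 8 counts a mouse, with 84.2% of its exon length inside other genes, and its value is uncertain.

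A few members share sequence or exons with other genes, so their counts could be split or mixed. Gins2 has 67.3% of its exon length inside Gse1 on the other strand, Kif20a 29.3% inside Cdc23, Ube2c 22.8% inside Tnnc2 and Ccne2 17.4% inside Ints8, and whether counting used strand is not given in the sources used here. Of windows of 50 bases, 23.4% in Ccnb1, 23.3% in Mcm7, 19.3% in Mybl2, 19.1% in Pcna and 10.4% in Plk1 occur in another annotated gene, pseudogenes among them.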

How the data were processed

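Colon RNA of 29 mice in 9 groups was sequenced from poly(A) libraries. The authors deposited raw counts of reads per gene, and the submitters' processing notes name Trimmomatic, HISAT2, HTSeq and the mouse build GRCm38. Versions, settings, strandedness and the annotation release are not given in the sources used here, so reads of overlapping or antisense genes may be shared. The 92 spike-in rows hold 0 counts. Gene symbols came from GENCODE M21 for 54495 of 54532 gene rows, and 20470 genes had no count in any mouse. Groups came from the submitters' labels. No pair of replicates was identical or agreed within sampling noise (33 pairs, lowest chi-square per degree of freedom 3.67).

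From these counts, edgeR 4.0.16 (R 4.3.3) fitted all 9 groups together without covariates, with TMM scaling, a mean of at least 3 counts over all mice and the quasi-likelihood test. Adjusted p-values are Benjamini-Hochberg values over all 18616 genes tested, with 0.05 as the threshold, and also stand for tests quoted with n under 10. SE is the absolute log2 fold change divided by the root of F. The test between the 6 models asks whether all 6 differences are equal. The fits were tested on simulated data. The depth of 10725564 to 14977094 counts limits low genes, and the floor in CPM covers counting error only.

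The 52 genes and the lists of related and marker genes were chosen with earlier results of these data known. Named in each comparison are 14 index genes (Mki67, Top2a, Cdk1, Ccnb1, Plk1, Aurkb, Mcm2, Mcm5, Pcna, Rrm2, Ccne1, E2f1, Foxm1, Cdc20), the 5 largest rises and falls past the threshold, the largest difference short of it, the 3 lowest p-values in the test between models, genes called in 4 or more comparisons, and genes against the sign of their role. Related genes are named if called in 3 or more comparisons or among the 2 largest changes of a list, with Cdkn1a, Myc and Ccnd1 added. Bub1b, Espl1 in the comparison of controls, and the genes called only without a given mouse were named after their values were seen. Some items that the rule would name are not reported here.

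Alternatives were RLE scaling, no filter, edgeR's own filter, DESeq2 1.42.0 and edgeR on the 2 groups of a comparison alone, other control groups, each mouse left out, and a replicate block where groups share numbers. The labels do not say that a number marks a shared litter or batch. Promoter windows came from RefSeq (GRCm38.p6). Figures were drawn with matplotlib 3.10.9 in Python 3.11.15.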

Additional observations from a re-analysis of the deposited data

Results flagged for a closer look

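The 14 index genes and the summed level of the 52 genes were checked in TRUC and IL-10 blockade, the 2 groups of 4 mice, for a mouse far from the others (30 checks), by Dixon's test of the gap over the whole range, and 4 stood out, where chance gives about 1 in 20. Pcna was at 185.1 CPM in TRUC 4 against 160.4 to 163.5 CPM in the other TRUC mice. IL-10 blockade 1 had the highest level of 3 mitotic genes: Mki67 at 315.8 CPM against 201.7 to 205.3, Cdk1 at 103.1 CPM against 61.95 to 66.58, and Ccnb1 at 122.1 CPM against 63.99 to 69.24. The 3 genes share the same library.

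For 5 of the 52 genes the change from the own control differed between the 6 models in the edgeR test of that difference. The adjusted p was 7.812e-07 for E2f2, 0.00725 for Plk1, 0.01043 for Rrm2, 0.01737 for Pcna and 0.03057 for Bub1b. E2f2 had its largest rise in TRUC, at 3.04 on the log2 scale. Without DSS 5 the test called 37 genes.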

How the results depend on the processing

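Scaling with RLE factors, both other filters on low counts and the replicate block left the number of members called within 1.5 times the reported count in every comparison in which they were run; RLE moved the all-gene median to at most 0.050. Of the index genes' values under settings other than a left-out mouse, 446 kept sign and call, 5 changed sign, 14 lost and 53 gained a call. Fitting the 2 groups alone gave 1 member higher in DSS and 16 with anti-CD40, and DESeq2 gave 28 in DNBS and 24 with anti-CD40. With the Rag2-/- controls TCT raised 40 and anti-CD40 35, with the wild-type controls TCT raised 19, and with the labelled Rag1-/- controls TRUC raised 32. The last choice was made after seeing the data. With another control Plk1 in TCT turned to 0.33 (wild-type) and 0.22 (Rag2-/-), E2f1 in TCT to -0.015 (wild-type), Plk1 in TRUC to -0.17 (labelled Rag1-/-) and Pcna in TRUC to -0.081 (wild-type). The cause was not tested.

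Leaving out 1 mouse gave 48 to 49 members higher in TRUC, 1 to 8 in DSS (0 to 3 lower), 0 to 19 in DNBS, 14 to 23 under IL-10 blockade, 1 to 16 in TCT and 1 to 6 with anti-CD40, 1 to 23 lower in DSS than in DNBS and 4 to 37 that differed between models. Log2 differences that changed sign ranged in DSS from -0.29 to 0.53 (Mki67), -0.14 to 0.52 (Top2a), -0.028 to 0.73 (Aurkb), -0.19 to 0.32 (Mcm2), -0.30 to 0.41 (Mcm5), -0.17 to 0.17 (Pcna), -0.31 to 0.21 (E2f1) and -0.21 to 0.59 (Foxm1), in DNBS from -0.039 to 0.29 (Pcna), in TCT from -0.16 to 0.46 (Mki67), -0.020 to 0.50 (Mcm2), -0.11 to 0.56 (Mcm5) and -0.18 to 0.51 (Foxm1), and with anti-CD40 from -0.032 to 0.14 (Plk1), -0.073 to 0.13 (Pcna) and -0.015 to 0.33 (E2f1). None of the differences that changed sign without a mouse was called in the reported fit.

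With the replicate number as a block, 50 members rose in TRUC and 25 under IL-10 blockade, Mki67 under IL-10 blockade gained a call (0.66) and Plk1 lost it (0.42). Deviations from the group mean had correlations of -0.052 to 0.056 between mice with the same number and -0.080 to 0.070 between mice with different numbers. With few pairs and groups of 3 or 4 mice, that check cannot settle whether the numbers pair mice. Groups of 3 or 4 mice and levels of a few CPM, as for Mycn, limit what could be detected.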
